A study of Homo sapiens with 7 samples.

Results

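Messenger RNA after 240 min of blue light was compared with messenger RNA after 120 min in the human neuroglioma line H4, an established cell line, here carrying opto-PKR. In opto-PKR the light-clustering protein Cry2Olig is joined to PKR, so that continuous blue light gathers the kinase into clusters. Every library of the series came from these engineered cells, plated on fibronectin in a glass-bottom plate, lit for 0, 60, 120, 240, 480, 600 or 720 min and lysed at once. The members are the 240 min library and the 120 min library, 2 of 7 libraries in the series, with 1 library at each time. The 0 and 60 min libraries are used to say which genes had already moved before 120 min. Cultures kept in the dark for as long, and lit H4 cells lacking opto-PKR, were not analysed here, so time under light and time in the plate cannot be told apart.

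PKR is one of the kinases that phosphorylate the translation initiation factor eIF2. Phosphorylated eIF2 slows translation of most messages, while a few, such as that of the transcription factor ATF4, are translated more. ATF4 and its partners then switch on genes for amino acid synthesis and transport, for transcription factors such as ATF3 and DDIT3, and for feedback on the pathway itself, a program called the integrated stress response (ISR). PKR is also known as a sensor of double-stranded RNA with links to inflammatory signalling through NF-kB.

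The libraries count transcripts near their 3' ends with unique molecular identifiers (UMIs). Gene transcripts summed to 8.50e+06, 7.05e+06, 7.57e+06 and 8.91e+06 at 0, 60, 120 and 240 min, and each UMI was read 2.32 times at 240 min and 2.08 times at 120 min. Levels are given as CPM, the transcript count of a gene scaled to the library's total of gene transcripts. A ratio is the log2 of 240 over 120 min with a prior count of 2 on each side. Its 95% interval is exact and covers counting error only, since no time was repeated, and no difference below has a replicate check. A gene with 20 or more counts in either library was compared, and it was called higher or lower at 2-fold. Of 8 glial and mesenchymal markers, 5 could be matched by symbol and 4 reached that minimum, VIM, CD44, SOX9 and TNC. The rest, NES, S100B, GFAP and FABP7, were not found by symbol or stayed under the minimum. A symbol not found can mean a gene without counts as well as another name. VIM had 744 CPM at 240 min and 914 CPM at 120 min, and CD44 had 588 CPM at 240 min and 625 CPM at 120 min. Of the neuron markers, SYT1 had 65.8 CPM at 240 min and 64.3 CPM at 120 min, and SNAP25 had 25 counts at 240 min and 30 at 120 min. The markers of epithelium, blood and endothelium that could be matched all stayed under the minimum, with at most 5 counts in either library. The table at 480 min is incomplete, so genes late in the alphabet have no value at that time.

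Most messages stayed within 2-fold over this step. Of 12645 genes compared, 144 were at least 2-fold higher at 240 min, which is 1.14%, and 94 were at least 2-fold lower, which is 0.743%, 238 in all (1.88%). The median ratio over all genes was 0.01, with the 5th percentile at -0.51 and the 95th at 0.58. The step lasted 120 min, whereas each earlier step lasted 60 min. At 60 against 0 min, 304 of 12665 genes were 2-fold higher (2.4%) and 79 lower (0.624%), 3.02% together. Between 120 and 60 min, 107 of 12571 were higher (0.851%) and 211 lower (1.68%), 2.53% together. The interval lay off no change in 143 of the 144 higher genes and in 94 of the 94 lower genes. Over all 12645 genes compared it lay above no change in 2660 and below in 2266. Because the calls were made at 2-fold from these same counts, nearly all called genes must pass, so this is no check on the calls. The interval lay wholly past 2-fold in 32 higher genes (0.253%) and 13 lower genes (0.103%).

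**Figure D1:**
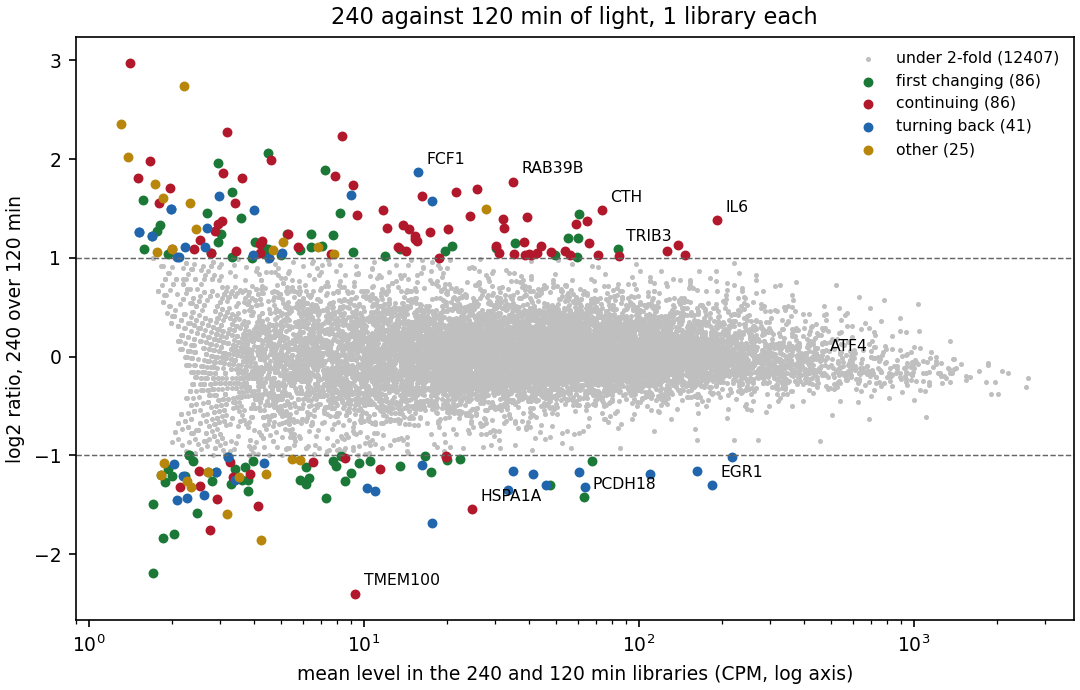
Log2 ratio of 240 over 120 min (vertical axis) against the mean CPM of the 2 libraries (horizontal log axis), 1 point a gene. Coloured points are the genes at least 2-fold apart, by class; grey points are the 12407 others, and dashed lines mark 2-fold. IL6 and CTH stand high among abundant risers, ATF4 lies near 0, and TMEM100 is the lowest point at -2.40.

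The genes were then divided by what they had done before 120 min. A gene was called first changing when it had stayed within 1.5-fold of the 0 min level at both 60 and 120 min. It was called continuing when it already stood 1.5-fold or more from 0 min in the same direction at 120 min, and turning back when it stood that far off in the other direction. The rest, past 1.5-fold at 60 min but not at 120 min, formed a small remaining class. Of the 144 higher genes, 70 continued, 42 changed first in this step, 18 turned back and 14 fell in the remaining class. Of the 94 lower genes, 16 continued, 44 changed first in this step, 23 turned back and 11 fell in the remaining class. The 240/120 and 120/0 ratios share the 120 min library, so these class sizes are given as a description. They also rest on the 1.5-fold line: with 2-fold asked of the earlier change, 41 higher genes continued and 83 were first changing. The interval of 120 over 0 min lay off no change in 5 of the 42 higher and 4 of the 44 lower first changing genes, and in 52 of the 70 higher and 15 of the 16 lower continuing genes.

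A reading that shares no library with the step uses 60 against 0 min. Among the 144 higher genes, 53 (36.8%) had been at least 1.5-fold higher at 60 min and 10 (6.94%) at least 1.5-fold lower. Over all genes compared, 1218 had been that much higher at 60 min (9.63%) and 532 that much lower (4.21%). The 53 genes are 4.35% of those 1218. Of the 94 lower genes, 17 (18.1%) had been higher at 60 min and 14 (14.9%) lower. With 50 or more counts asked for in either library of each pair, 23 of 52 higher genes (44.2%) had been higher at 60 min, against 8.73% of the genes so counted. On the same terms 14 of 44 lower genes (31.8%) had been higher at 60 min, against that 8.73%, and 2 (4.55%) had been lower, against 3.24%.

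**Figure D2:**
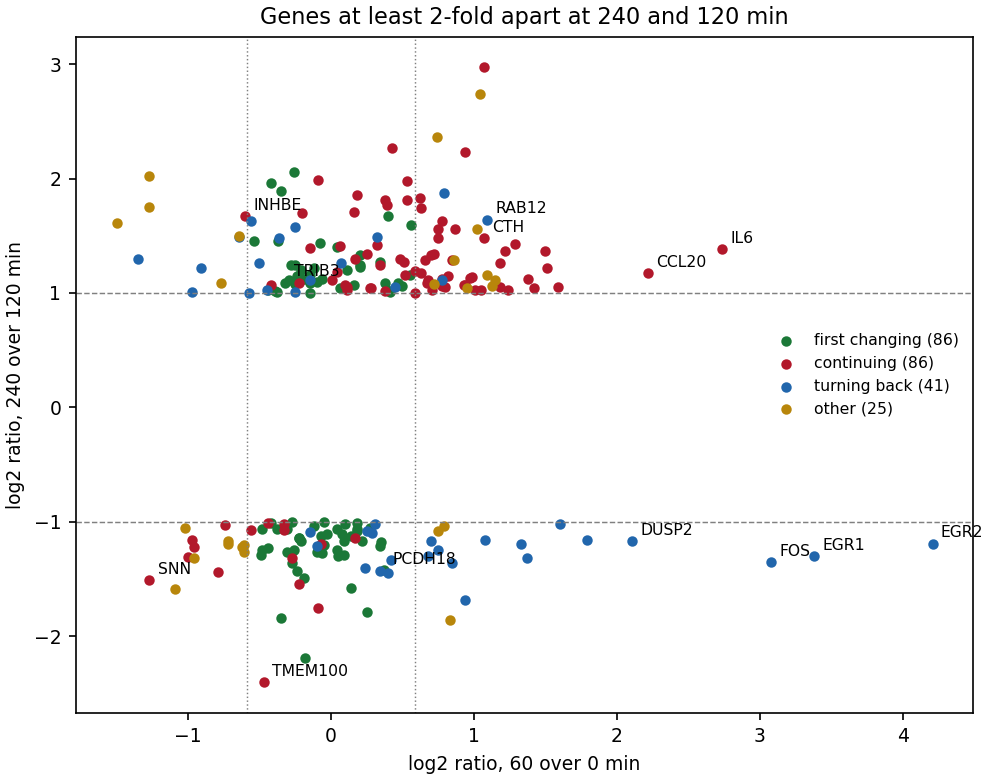
Log2 ratio of 240 over 120 min (vertical axis) against log2 ratio of 60 over 0 min (horizontal axis) for the 238 genes at least 2-fold apart, coloured by class; dotted lines mark 1.5-fold at 60 min and dashed lines 2-fold in the step. IL6, CCL20 and CTH sit at upper right, TRIB3 above no earlier change, and EGR2, EGR1 and FOS far to the lower right.

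Whether 240 min was the highest point of a gene differed within the higher genes. Among the 6 complete libraries, 68 of the 144 had their highest level in the 240 min library, 47 in that of 600 min and 27 in that of 720 min. Over all genes compared, the highest level was at 240 min for 26.1%, at 600 min for 12.3% and at 720 min for 15.7%. Since the members were chosen for a high 240 min value, this is a description of their courses. Of the 94 lower genes, 55 had their lowest level at 240 min, against 18.5% of all genes.

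Genes first changing in this step included 2 members of the amino acid arm and a feedback inhibitor of the ISR. TRIB3, a pseudokinase that ATF4 induces and that restrains ATF4 signalling, had 44.6, 35.7, 53.4 and 114 CPM at 0, 60, 120 and 240 min, and then 404 and 370 CPM at 600 and 720 min. The 240 min library stood above all 3 earlier ones and far below both late ones. Its ratio was 1.09 (0.92 to 1.26), from 1014 counts at 240 min and 404 at 120 min. SLC6A9, a glycine transporter, had 27.0, 23.3, 36.3 and 83.8 CPM over the same 4 times and 244 CPM at 600 min, with a ratio of 1.20 (1.00 to 1.41). PSPH makes serine in the last step of its synthesis. It had 26.5, 20.4, 39.6 and 79.9 CPM up to 240 min and 116 CPM at 720 min, with a ratio of 1.01 (0.81 to 1.21). All 3 genes were lower at 60 min than at 0 min, with log2 ratios of -0.32 for TRIB3, -0.21 for SLC6A9 and -0.38 for PSPH. All 3 were higher at 120 than at 60 min, so their levels were rising before this step. Measured from 0 min, which leaves that dip out, 87.2% of TRIB3's difference at 240 min lay in this step, 83.5% of SLC6A9's and 75.5% of PSPH's. All 3 were nevertheless already somewhat higher at 120 than at 0 min, within 1.5-fold but beyond counting error: the log2 ratio of 120 over 0 min was 0.26 (0.05 to 0.47) for TRIB3, 0.43 (0.17 to 0.69) for SLC6A9 and 0.57 (0.32 to 0.83) for PSPH.

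NFKB2, which encodes the p100/p52 subunit of NF-kB, had 27.5, 29.8, 33.4 and 76.9 CPM at 0, 60, 120 and 240 min. It then had 68.9, 61.7 and 41.7 CPM at 480, 600 and 720 min, so 240 min was its highest time. The ratio was 1.20 (0.99 to 1.42), and 88.0% of its difference from 0 min came in this step. At 120 over 0 min its log2 ratio was already 0.28 (0.02 to 0.54). TNFRSF9, the co-stimulatory receptor 4-1BB, had 102 counts at 240 min and 22 at 120 min, a ratio of 1.89 (1.30 to 2.71). From 16 counts at 0 min, its log2 ratio of 120 over 0 min was 0.57 (-0.37 to 1.65), only just within 1.5-fold. Unlike NFKB2, TNFRSF9 was higher still at 600 min, at 22.4 CPM, and at 720 min, at 21.9 CPM, above its 11.5 CPM at 240 min.

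BEX2, a small signalling adaptor of the brain-expressed X-linked family, had 790 counts at 240 min and 246 at 120 min, a ratio of 1.44 (1.24 to 1.66). Its level had been flat before, at 27.3, 25.8 and 32.5 CPM at 0, 60 and 120 min. It was 88.6 CPM at 240 min and 413 CPM at 720 min, still higher at each later time. MTMR7, a phosphoinositide phosphatase, and ITGAM, an integrin subunit best known from myeloid cells, changed from low counts. MTMR7 had 66 counts at 240 min and 12 at 120 min, and ITGAM had 43 at 240 min and 8 at 120 min. The clock-output transcription factor HLF had 55 counts at 240 min and 21 at 120 min, a ratio of 1.09 (0.40 to 1.95). BIK, a death-promoting member of the BCL2 family, had 24 counts at 240 min and 9 at 120 min, and its interval reached down to 0.02.

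**Figure D3:**
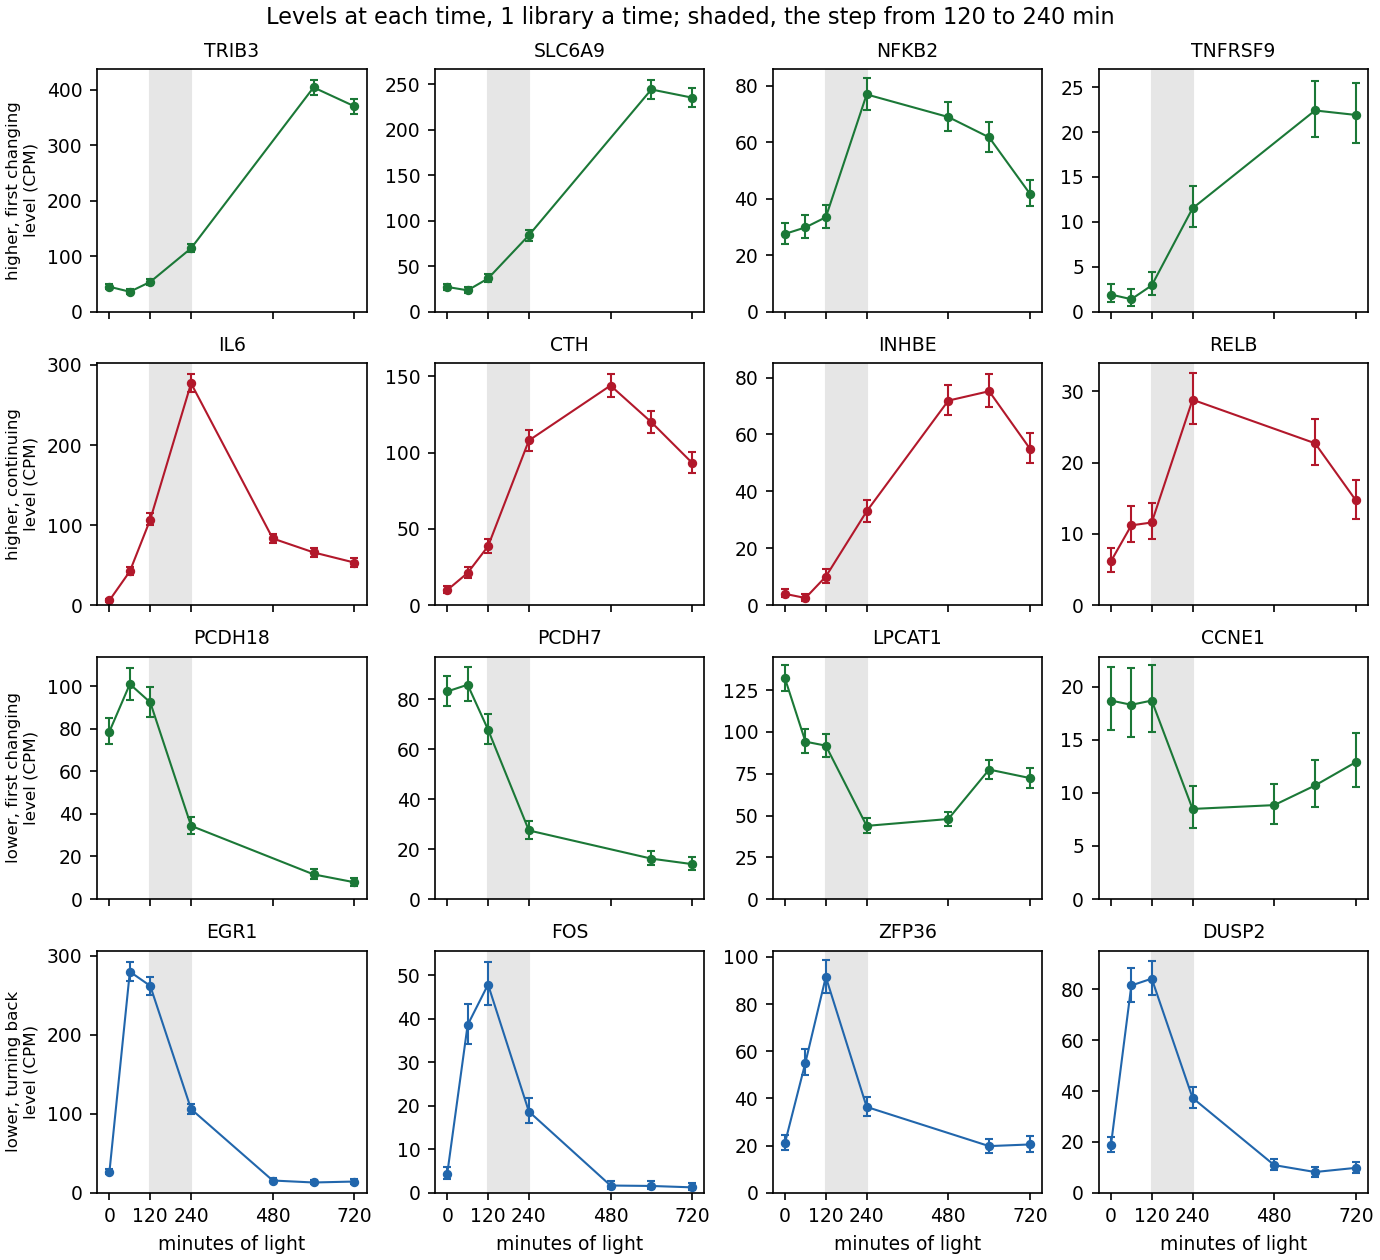
Level in CPM (vertical axes, each starting at 0) against minutes of light (horizontal axes) for 16 genes, with 95% counting intervals as bars and 1 library a time. The shaded band is the step from 120 to 240 min, and rows are, from the top, first changing and continuing among the higher genes, and first changing and turning back among the lower genes. Points absent at 480 min are genes beyond the end of that table.

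Several of the continuing genes encode cytokines. IL6, a cytokine of inflammation and a known NF-kB target, had 6.16, 42.4, 107 and 277 CPM at 0, 60, 120 and 240 min, and then 83.4, 66.0 and 53.3 CPM at 480, 600 and 720 min. Each library up to 240 min was above the one before, and 240 min was the highest of all 7. The ratio was 1.38 (1.26 to 1.49), from 2467 counts at 240 min and 806 at 120 min, and 62.9% of the difference from 0 min came in this step. Of 16 cytokines and chemokines compared, 4 were at least 2-fold higher, against 1.14% of all genes, and 0 lower. Their median ratio was 0.45 against 0.01 over all genes, and all 4 were continuing. Beside IL6 these were the chemokines CXCL3 and CCL20 and the IL-10 family member IL24. CXCL3 had 220 counts at 240 min and 77 at 120 min, a ratio of 1.26 (0.90 to 1.67), and stood higher still at 480 min. CCL20 had 193 counts at 240 min and 72 at 120 min, a ratio of 1.17 (0.79 to 1.60). IL24 had 369 counts at 240 min and 143 at 120 min, a ratio of 1.12 (0.85 to 1.42). CCL20 and IL24 were, like IL6, highest at 240 min among all 7 libraries.

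Genes of the NF-kB list, which holds its subunits and feedback genes, had less uniform histories. Of 18 compared, 4 were 2-fold higher, against 1.14% of all genes, and 0 lower, with a median of 0.42. NFKB2 changed first in this step. RELB, the usual partner of p52, continued, with 257 counts at 240 min and 88 at 120 min (ratio 1.29, 0.96 to 1.68). It had 6.16, 11.2, 11.6 and 28.8 CPM at 0, 60, 120 and 240 min, so it was flat between 60 and 120 min before this step. TRAF1, an adaptor of TNF receptors, continued with 124 counts at 240 min and 38 at 120 min (1.43, 0.94 to 2.04). REL, another subunit, was in the remaining class. It had 3.11, 7.07, 4.26 and 9.42 CPM at the same times, higher at 60 min, lower again at 120 min and higher at 240 min.

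The promoter windows of 4 of these inflammatory genes are shown because each holds letters of the NF-kB binding motif. The windows run from 250 bases before to 50 bases after the annotated start, in the direction of transcription, from RefSeq on GRCh38.p14. The letters searched on both strands were GGG, then any 2 bases, then TTTCC, and matches are in capitals. IL6 lies at chr7:22726950-22727249 on the plus strand and its match begins 73 bases before the start. CXCL3 lies at chr4:74038640-74038939 on the minus strand, with its match 79 bases before the start. TNFRSF9 lies at chr1:7940790-7941089 on the minus strand, with its match 74 bases before. NFKB2, which has 3 annotated windows, holds it in the one at chr10:102394328-102394627 on the plus strand, 78 bases before the start.
IL6: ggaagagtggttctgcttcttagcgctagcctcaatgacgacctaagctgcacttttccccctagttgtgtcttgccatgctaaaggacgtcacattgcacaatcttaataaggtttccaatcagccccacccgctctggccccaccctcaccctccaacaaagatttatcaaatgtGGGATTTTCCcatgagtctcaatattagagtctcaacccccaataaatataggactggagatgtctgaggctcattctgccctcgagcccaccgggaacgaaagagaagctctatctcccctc
CXCL3: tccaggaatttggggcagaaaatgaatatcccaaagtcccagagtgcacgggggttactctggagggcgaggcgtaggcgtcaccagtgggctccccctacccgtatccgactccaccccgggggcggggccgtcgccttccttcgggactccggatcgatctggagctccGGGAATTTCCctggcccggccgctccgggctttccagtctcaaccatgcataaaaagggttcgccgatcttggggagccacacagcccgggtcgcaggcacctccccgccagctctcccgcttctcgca
TNFRSF9: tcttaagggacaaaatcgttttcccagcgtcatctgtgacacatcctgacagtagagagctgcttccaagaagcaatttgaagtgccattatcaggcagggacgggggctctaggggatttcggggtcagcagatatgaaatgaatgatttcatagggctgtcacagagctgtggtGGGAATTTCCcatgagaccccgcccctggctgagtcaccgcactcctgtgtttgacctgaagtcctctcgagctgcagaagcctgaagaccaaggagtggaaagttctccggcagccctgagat
NFKB2: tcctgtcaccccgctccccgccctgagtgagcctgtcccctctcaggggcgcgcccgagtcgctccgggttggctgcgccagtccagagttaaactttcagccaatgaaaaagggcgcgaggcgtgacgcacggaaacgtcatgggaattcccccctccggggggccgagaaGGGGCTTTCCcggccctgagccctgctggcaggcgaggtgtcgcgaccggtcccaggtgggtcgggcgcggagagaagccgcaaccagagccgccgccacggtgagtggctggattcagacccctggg
Over all 27305 RefSeq genes with a window, 635 (2.33%) hold these letters. The genes printed were picked because they match. The share among changed genes was not computed, because only 100 of the 144 higher genes (69.4%) had a window, with older symbols included. A match describes the sequence and does not show that a factor binds there.

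Amino acid genes and other ISR targets continued as well. CTH, which makes cysteine from cystathionine, had 9.98, 21.2, 38.7 and 108 CPM at 0, 60, 120 and 240 min, and 144 CPM at 480 min. Its ratio was 1.48 (1.30 to 1.68), from 967 counts at 240 min and 293 at 120 min. ALDH1L2, a mitochondrial folate enzyme, had 163 counts at 240 min and 63 at 120 min (1.11, 0.71 to 1.58) and stood between 41.8 and 45.3 CPM at the 3 later times, against 18.3 CPM at 240 min. INHBE, which encodes an inhibin subunit and is a known ISR target, had 4.02, 2.56, 10.1 and 33.0 CPM at 0, 60, 120 and 240 min and 75.2 CPM at 600 min. Its ratio was 1.67 (1.33 to 2.08), and 78.9% of its difference from 0 min came in this step. VLDLR, the very-low-density lipoprotein receptor, had 154 counts at 240 min and 52 at 120 min (1.30, 0.87 to 1.81). CTH, ALDH1L2, INHBE, VLDLR, TRIB3, SLC6A9 and PSPH all had higher levels at 600 min than at 240 min, as did the chemokine CXCL3, while IL6, CCL20 and IL24 had lower ones.

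Outside these pathways, the continuing genes with intervals farthest from no change were RAB39B, SAMD4A, GABRG1, KCTD16, CCDC147 and KRTAP7-1. The earlier rise, from 0 to 120 min, was beyond counting error for RAB39B, SAMD4A and KCTD16 only. Its log2 ratio was 0.67 (-0.29 to 1.84) for GABRG1. For CCDC147 it rested on 7 counts at 120 min and 3 at 0 min, and for KRTAP7-1 on 1 and 0. RAB39B, a small GTPase of vesicle traffic, had 482 counts at 240 min and 119 at 120 min, a ratio of 1.77 (1.49 to 2.08), and went on to 136 CPM at 600 min against 54.1 CPM at 240 min. SAMD4A, an RNA-binding repressor of translation, had 352 counts at 240 min and 91 at 120 min, a ratio of 1.70 (1.38 to 2.06), and was lower at 600 min, with 30.7 CPM against 39.5 CPM at 240 min. GABRG1, a subunit of the GABA-A receptor, had 124 counts at 240 min and 21 at 120 min, a ratio of 2.23 (1.65 to 3.07). KCTD16, an auxiliary subunit of GABA-B receptors, had 110 at 240 min and 25 at 120 min (1.83, 1.27 to 2.59). KRTAP7-1, a keratin-associated protein, has the highest ratio of all, 2.97, but it rests on 24 counts at 240 min and 1 at 120 min, and its interval ran from 1.73 to 9.71.

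Developmental signals and transcription factors were also among the continuing genes. INHBA, an activin subunit, had 485 counts at 240 min and 201 at 120 min (1.03, 0.80 to 1.28), and BMP2, a bone morphogenetic protein, had 192 at 240 min and 69 at 120 min (1.22, 0.84 to 1.66). Of 18 genes of the TGF-beta and BMP list, 3 were 2-fold higher (INHBA, BMP2 and INHBE), against 1.14% of all genes, and 0 lower, with a median of 0.08. Of the 18, 6 had intervals above no change and 4 below, against 2660 and 2266 of all 12645 genes, so the share below is close to that of all genes. The 4 below were the inhibitors of differentiation ID1, at -0.63 (-0.69 to -0.58), ID3, at -0.50 (-0.58 to -0.43), and ID2, at -0.30 (-0.40 to -0.19), and the pseudoreceptor BAMBI, at -0.50 (-0.64 to -0.35). These 4 are outside the naming rule. Of 13 Kruppel-like factors, 1 was 2-fold higher and 4 were 1.5-fold higher, against 1.14% and 4.9% of all genes. KLF5 had 12.5, 26.1, 46.7 and 95.6 CPM at 0, 60, 120 and 240 min and was highest at 240 min. KLF4, with a ratio of 0.98 (0.77 to 1.20), and KLF7, with 0.92 (0.74 to 1.11), stayed under the 2-fold line. Among 16 circadian clock genes, 2 were 2-fold and 7 were 1.5-fold higher, against 1.14% and 4.9% of all genes, and 0 were lower, with a median of 0.49. NR1D1, the repressor REV-ERB alpha, had 11.1, 19.8, 40.9 and 90.6 CPM up to 240 min and 25.8 CPM at 600 min. The other 2-fold higher clock gene, HLF, was first changing. PER1 and PER2, repressors of the clock, had ratios of 0.98 (0.44 to 1.61) and 0.91 (0.55 to 1.31), under the 2-fold line. At 0, 60, 120 and 240 min PER1 had 3.78, 6.99, 4.91 and 9.87 CPM, and PER2 had 8.51, 16.1, 11.4 and 21.5 CPM. Both were thus lower at 120 than at 60 min before this step.

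Most of the ISR regulators were higher in this step, though few by 2-fold. Of 21 ISR regulators compared, 2 were 2-fold higher (TRIB3 and VLDLR) and 0 lower, while 12 were at least 1.5-fold higher, against 1.14% of all genes at 2-fold and 4.9% at 1.5-fold. Their median ratio was 0.60, after a median of 0.83 at 120 over 0 min. ATF4 itself did not differ beyond counting error: it had 311, 349, 464 and 456 CPM at 0, 60, 120 and 240 min, and its ratio was -0.03 (-0.09 to 0.04). SESN2, a stress sensor that restrains mTORC1, had 20.2, 38.4, 66.7 and 128 CPM (0.94, 0.79 to 1.09), so it came nearest to the 2-fold line among the genes always reported. ATF3, a transcription factor induced by ATF4, had 27.3, 127, 192 and 341 CPM (0.83, 0.74 to 0.92) and was highest at 240 min. DDIT3, also called CHOP, had 875 counts at 240 min and 485 at 120 min (0.61, 0.45 to 0.78) and then held between 90.3 and 94.1 CPM at the 3 later times, against 98.2 CPM at 240 min. PPP1R15A, or GADD34, which directs the phosphatase that reverses eIF2 phosphorylation, had a ratio of 0.73 (0.65 to 0.81). CHAC1, which degrades glutathione, had one of 0.62 (0.55 to 0.70), and DDIT4, an inhibitor of mTORC1, one of 0.43 (0.36 to 0.50). For these genes the larger part of the difference from 0 min lay before 120 min, except SESN2, with 56.9% in this step: the share in the step was 47.4% for ATF3, 45.3% for PPP1R15A, 41.2% for DDIT3, 39.5% for CHAC1 and 34.2% for DDIT4.

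ASNS, which makes asparagine, behaved unlike the factors just named. It had 247, 208, 277 and 468 CPM at 0, 60, 120 and 240 min, and 929 CPM at 600 min. The ratio was 0.76 (0.68 to 0.83), and the 120 min level differed from the 0 min level by only 0.16 on the log2 scale. In the amino acid list, with 20 synthesis and transport genes compared, 4 were 2-fold higher (CTH, SLC6A9, ALDH1L2 and PSPH) and 8 were 1.5-fold higher, against 1.14% and 4.9% of all genes, with 0 lower at either fold. The median was 0.49, against 0.35 at 120 over 0 min and -0.01 at 60 over 0 min. The cytosolic tRNA synthetases, which load amino acids onto tRNAs and are partly ATF4 targets, had a median of 0.17. Past 1.5-fold were 0 of 20 members, against 4.9% of all genes higher and 3.74% lower. The highest were SARS at 0.58 (0.48 to 0.68), AARS at 0.46 (0.34 to 0.57) and CARS at 0.45 (0.35 to 0.55). All 3 had been within 1.5-fold of the 0 min level at 120 min.

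Windows of CHAC1 and ASNS are shown because both hold the letters TGATGNAA, the core of the element that ATF4 with a C/EBP partner is known to bind (CARE). Both strands were searched, and matches are in capitals. CHAC1 lies at chr15:40953221-40953520 on the plus strand. Its match is on the opposite strand, so it reads as the reverse complement, and begins 209 bases before the start. The ASNS window is 1 of 2 and lies at chr7:97872359-97872658 on the minus strand, with the match 68 bases before the start.
CHAC1: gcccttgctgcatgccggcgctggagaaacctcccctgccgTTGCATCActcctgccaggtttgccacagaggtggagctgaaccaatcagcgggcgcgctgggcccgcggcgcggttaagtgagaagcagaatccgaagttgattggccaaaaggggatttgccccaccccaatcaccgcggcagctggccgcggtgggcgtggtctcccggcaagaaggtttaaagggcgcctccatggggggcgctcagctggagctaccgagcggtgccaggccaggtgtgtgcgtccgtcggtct
ASNS: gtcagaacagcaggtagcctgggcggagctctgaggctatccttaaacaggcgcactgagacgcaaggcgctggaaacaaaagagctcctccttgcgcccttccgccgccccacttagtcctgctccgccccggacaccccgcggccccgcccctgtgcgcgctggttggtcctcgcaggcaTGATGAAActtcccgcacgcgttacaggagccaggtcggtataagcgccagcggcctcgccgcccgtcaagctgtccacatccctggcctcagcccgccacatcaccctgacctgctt
Of all 27305 RefSeq genes with a window, 1217 (4.46%) hold these letters. CHAC1 had 284 CPM at 120 min and 49.4 CPM at 0 min, before this step, while ASNS had 277 CPM at 120 min and 247 CPM at 0 min.

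Of 21 genes of endoplasmic reticulum folding compared, 12 had intervals below no change and 3 above, against 2266 and 2660 of all 12645 genes. In this list 0 were 2-fold apart, against 1.88% of all genes, and the median was -0.18. HSPA5, the chaperone BiP, had 711, 573, 453 and 386 CPM at 0, 60, 120 and 240 min and 721, 793 and 915 CPM at 480, 600 and 720 min, so 240 min was its lowest time. Its ratio was -0.23 (-0.30 to -0.16). Past 1.5-fold were 2 members, both higher, against 4.9% of all genes. They were XBP1, the transcription factor of the unfolded protein response, at 0.72 (0.55 to 0.90), and HERPUD1, which aids degradation of misfolded proteins, at 0.70 (0.61 to 0.80). EIF2AK2, the gene of PKR, had 188, 114, 87.2 and 67.1 CPM at 0, 60, 120 and 240 min and a ratio of -0.38 (-0.54 to -0.22). The tables do not separate the cell's own EIF2AK2 from the opto-PKR construct. Of the other eIF2 kinases, EIF2AK4 (GCN2) had -0.30 (-0.55 to -0.05), and EIF2AK3 (PERK) had -0.21 with an interval from -0.67 to 0.23.

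**Figure D4:**
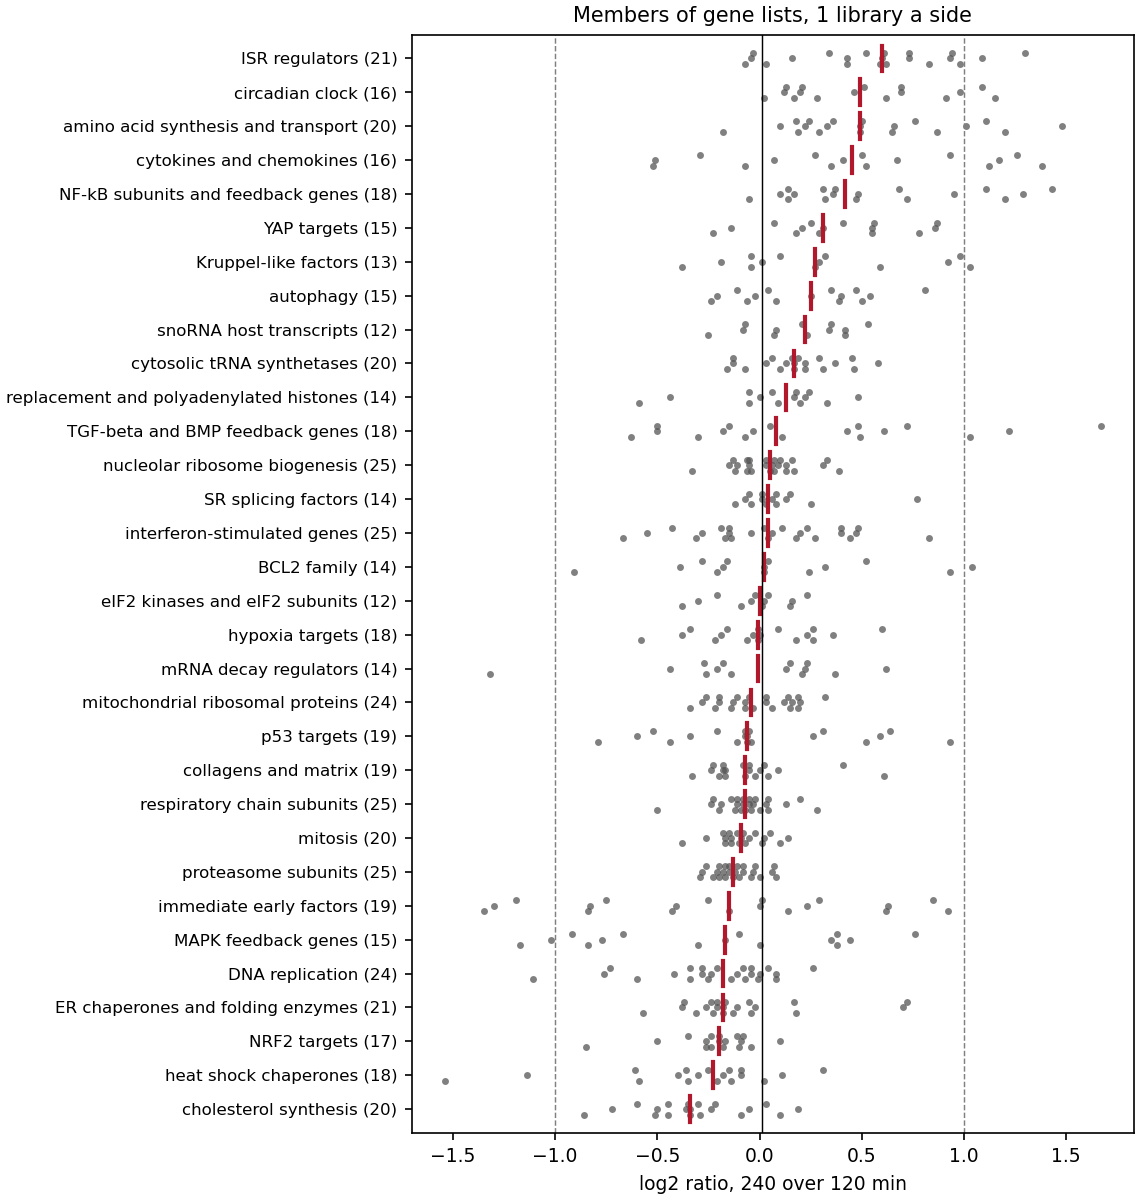
Log2 ratio of 240 over 120 min (horizontal axis) for the compared members of 32 gene lists (rows, with the number compared), 1 grey point a gene and a red bar at the median. Dashed lines mark 2-fold and the solid line the median of all genes compared, 0.01. ISR regulators, clock genes, amino acid genes, cytokines and NF-kB genes have the highest medians, from 0.60 to 0.42, and cholesterol synthesis has the lowest at -0.34.

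Among the lower genes, those first changing in this step included adhesion molecules. PCDH18, a protocadherin of cell contact, had 78.7, 101, 92.4 and 34.4 CPM at 0, 60, 120 and 240 min and went on to 11.6 and 7.89 CPM at 600 and 720 min. Its ratio was -1.42 (-1.63 to -1.23), from 306 counts at 240 min and 699 at 120 min. PCDH7, another protocadherin, had 83.2, 85.9, 67.9 and 27.5 CPM and a ratio of -1.30 (-1.53 to -1.08). At 120 over 0 min PCDH7 was already lower, within 1.5-fold but beyond counting error, with a log2 ratio of -0.29 (-0.46 to -0.13). PCDH18 was slightly higher there, at 0.23 (0.08 to 0.39). Both protocadherins were lower than at 240 min, and lower again, at each later time measured. CBLN2, a secreted synapse organiser, had 34 counts at 240 min and 81 at 120 min (-1.43, -2.11 to -0.89) and 0.758 CPM at 720 min. IGSF3, a membrane protein of the immunoglobulin superfamily, had 95 counts at 240 min and 184 at 120 min (-1.17, -1.56 to -0.82) and then stayed between 10.7 and 11.9 CPM, as at 240 min.

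LPCAT1, which remodels phospholipids, had 132, 94.2, 91.8 and 43.8 CPM at 0, 60, 120 and 240 min, and a ratio of -1.06 (-1.25 to -0.89). It was already lower at 120 than at 0 min, by less than 1.5-fold, with a log2 ratio of -0.52 (-0.66 to -0.38), and 54.5% of its difference from 0 min came in this step. Its level was higher again at 600 min, at 77.5 CPM. CCNE1, the cyclin of entry into S phase, had 18.7, 18.3, 18.7 and 8.49 CPM over the same times, level until 120 min and lower at 240 min. Its ratio was -1.11 (-1.55 to -0.71). It was the 1 of 24 DNA replication genes past 2-fold, against 1.88% of all genes. CCNE2, at -0.76 (-0.98 to -0.54), PCNA, the sliding clamp of DNA polymerases, at -0.73 (-0.84 to -0.62), and GINS2, part of the replicative helicase, at -0.60 (-0.76 to -0.44), were also past 1.5-fold, which makes 4 of 24 against 3.74% of all genes, and 0 members were that much higher. The median of this list was -0.18 at 240 over 120 min and 0.01 at 120 over 0 min. Of 20 genes of mitosis, 0 were past 1.5-fold, against 4.9% of all genes higher and 3.74% lower.

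Fewer lower genes continued. TMEM100, a membrane protein best known from endothelium, had 26.7, 19.2, 15.8 and 2.81 CPM at 0, 60, 120 and 240 min, and 1.01 CPM at 720 min. Its ratio of -2.40 (-3.18 to -1.87), from 25 counts at 240 min and 120 at 120 min, was the lowest of all genes compared. HSPA1A, an inducible HSP70 chaperone, had 61.9, 53.2, 37.0 and 12.5 CPM (-1.54, -1.89 to -1.24), and HSPA1B had 48.0, 54.2, 15.8 and 7.07 CPM (-1.14, -1.63 to -0.71). These genes are near-identical copies, so the division of reads between them is uncertain, but both were lower. HSPA8, the constitutive HSP70, had -0.61 (-0.65 to -0.56), and HSPE1, a mitochondrial chaperonin, had -0.59 (-0.66 to -0.53). Of 18 heat shock chaperones, 2 were 2-fold and 4 were 1.5-fold lower, against 0.743% and 3.74% of all genes. METTL7A, a methyltransferase-like protein of lipid droplets, had 48.1, 38.1, 26.8 and 13.1 CPM up to 240 min and 1.64 CPM at 720 min (ratio -1.02, -1.37 to -0.70). Of 20 cholesterol synthesis genes, 0 were 2-fold apart and 3 were 1.5-fold lower, against 1.88% and 3.74% of all genes. Among these 3 was INSIG1, the sterol sensor that retains SCAP, at -0.86 (-1.21 to -0.54).

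The lower genes that turned back included immediate early and feedback genes that had been high at 60 and 120 min. EGR1, a zinc-finger factor of the first transcriptional response, had 26.6, 280, 262 and 106 CPM at 0, 60, 120 and 240 min, and 15.6, 13.1 and 14.3 CPM at 480, 600 and 720 min. The 240 min library lies between the high early pair and the low late libraries. The ratio was -1.30 (-1.41 to -1.19), from 949 counts at 240 min and 1985 at 120 min. FOS had 4.37, 38.6, 47.9 and 18.7 CPM up to 240 min and at most 1.68 CPM later (-1.35, -1.64 to -1.10). EGR2 had 1.30, 28.3, 57.4 and 24.9 CPM and at most 0.885 CPM later (-1.19, -1.44 to -0.97). At 240 min all 3 were still above 0 min. At the later times EGR1 and FOS were below it, while EGR2 had 8, 7 and 7 counts against 11 at 0 min, too few to tell apart. Of 19 immediate early factors, 3 were 2-fold lower, against 0.743% of all genes, and 0 higher. At 1.5-fold, 6 were lower and 4 higher, against 3.74% and 4.9% of all genes. Their median was -0.15, after 1.92 at 120 over 0 min.

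Several feedback genes had a like course. ZFP36, also called tristetraprolin, which speeds decay of AU-rich messages such as cytokine mRNAs, had 21.2, 55.2, 91.5 and 36.4 CPM at 0, 60, 120 and 240 min (-1.32, -1.52 to -1.13) and about its 0 min level at 600 and 720 min, at 19.8 and 20.5 CPM. DUSP2, a phosphatase that inactivates MAP kinases, had 18.7, 81.5, 84.2 and 37.3 CPM (-1.17, -1.37 to -0.98). SPRY4, an inhibitor of receptor tyrosine kinase signalling, had 71.1, 215, 292 and 144 CPM (-1.02, -1.12 to -0.92) and 71.1 CPM at 720 min. Of 15 MAPK feedback genes, these 2 were 2-fold lower and 6 were 1.5-fold lower, against 0.743% and 3.74% of all genes, and 1 was 1.5-fold higher. RGS1, which shortens G protein signalling, had 15.2, 29.4, 27.1 and 8.27 CPM (-1.68, -2.11 to -1.32), so at 240 min it was already under its 0 min level. C10orf10, also called DEPP, a FOXO target, had 17.6, 28.5, 65.5 and 26.4 CPM (-1.30, -1.54 to -1.08).

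The higher genes that turned back had varied courses. FCF1, a factor of small ribosomal subunit processing, had 22.5, 39.0, 6.66 and 24.8 CPM at 0, 60, 120 and 240 min, and 26.2, 33.3 and 47.1 CPM later. It was low at 120 min and in no other library, with 275, 50 and 221 counts at 60, 120 and 240 min. RAB12, a GTPase of membrane recycling, had 6.51, 14.1, 4.24 and 13.7 CPM over the same times, and MUC1, a mucin, had 3.90, 2.56, 1.32 and 4.62 CPM. ZC3H7B, a zinc-finger RNA-binding protein, had 16.1, 13.5, 8.66 and 26.6 CPM, and went on to 38.6 and 57.2 CPM at 600 and 720 min. ZC3H7B and MUC1 were thus lower at 60 than at 0 min already, while FCF1 and RAB12 were higher at 60 than at 0 min. Of all 18 genes in this class, 10 had an interval of 120 over 0 min that lay off no change.

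Of 25 interferon-stimulated genes, 0 were 2-fold apart, against 1.88% of all genes, with a median of 0.04. The 25 proteasome subunits lay between -0.29 and 0.08, the 25 respiratory chain subunits between -0.50 and 0.28, and the 24 mitochondrial ribosomal proteins between -0.34 and 0.32. The 12 snoRNA host transcripts, which had a median of 1.13 at 120 over 0 min, had one of 0.22 in this step. YAP targets had a median of 0.31, with 3 of 15 members 1.5-fold higher, against 4.9% of all genes, and 0 lower. The intervals of 12 of the 15 lay above no change and that of 1 below, against 2660 and 2266 of all 12645 genes. Among the 12 were AJUBA at 0.87 (0.72 to 1.02) and DLC1 at 0.78 (0.66 to 0.90). PMAIP1, or NOXA, a death-promoting BCL2 family member, had 0.52 (0.41 to 0.64), and VEGFA, the angiogenic growth factor, had 0.36 (0.31 to 0.41) after 2.10 at 120 over 0 min.

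Genes near the 2-fold line show how fine the division is. MPI, with 54 counts at 240 min and 22 at 120 min, was just inside at 1.001, and KIAA1199, with 47 at 240 min and 19 at 120 min, at 1.003. INTU, with 21 counts at 240 min and 8 at 120 min, was just outside. On the lower side NMNAT2 and SLC16A10, each with 13 counts at 240 min and 24 at 120 min, were inside at -1.004, and DLL3, with 16 at 240 min and 29 at 120 min, was outside at -0.999.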

How the data were processed

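RNA from opto-PKR H4 cells was measured in 1 library at each of 7 times under light. Per the labels, libraries followed an adaptation of CEL-Seq2 with primer 4. For each time the authors deposited tables per gene of transcripts, UMIs and reads, all expected counts in 96 barcode columns; the column of barcode 4 was used, and the 95 others per table were not. The submitters' processing notes name BWA and hg19; versions, annotation and the treatment of multi-mapping reads were not given in the sources used here. Correcting the deposited UMI counts for collisions among 4096 UMIs gives the transcript counts at 240 min (largest difference 7.4e-10). ERCC spike-in rows, 0.00771% at 240 min and 0.00767% at 120 min, were left out. The correction is steep above 3800 UMIs, which 28 compared genes passed and 0 called genes did.

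From these counts, CPM, log2 ratios (prior count 2) and exact Clopper-Pearson 95% intervals without the prior were computed in Python 3.11.15 with scipy 1.17.1, and tested on simulated data. No p-value is possible with 1 library a side. Alternatives were effective library sizes from edgeR 4.0.16 (TMM and RLE), UMI and read counts, thinning, minimum counts, priors and folds. The 480 min table ends at NME1-NME2; its total was estimated as 10163857 from the genes it lists. The members, gene lists and naming rule were chosen with earlier results of these data known. Genes named were, per class, those with the interval bound farthest from no change (8 continuing and 8 first changing in each direction, 5 turning back), the 4 largest ratios of each list, and a fixed set of ISR genes and IL6. Of 627 symbols in 37 lists, 614 were in the tables. Promoter windows came from RefSeq (GRCh38.p14), matched by symbol or an older symbol.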

Additional observations from a re-analysis of the deposited data

How the results depend on the processing

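Main counts are 144 higher (42 first changing, 70 continuing, 18 turning back) and 94 lower (44, 16 and 23). Over all alternatives 48 of 92 count values stayed within 1.5 times, including all those under TMM, RLE, UMI counts and a prior of 0.5. From read counts, higher turning back was 32, and the lower genes were 152, with 70 first changing, 28 continuing and 40 turning back. Thinned to the smallest library total, higher turning back was 11. With 50 or more counts in either library, 92 were higher (27 first changing, 6 turning back) and 44 lower (20, 7 and 14). With 1 count or more, 424 were higher (117 first changing, 158 turning back) and 439 lower (149, 57 and 137). With the whole interval past 2-fold, 32 were higher (5, 21 and 3) and 13 lower (3, 2 and 7). With an earlier change of 2-fold, the higher classes were 83, 41 and 9 and the lower 75, 4 and 12. With 60 against 0 min alone, 81 higher genes were first changing and 10 turning back. A call at 1.5-fold, added after the data were seen, gave 620 higher (222, 269 and 74) and 473 lower (257, 101 and 81). Of 1038 values of named genes 986 stayed within their counting interval, and 0 of those of called genes changed direction. In 201 of 204 cases a list median moved by at most 0.5 times the median interval width of its members. That is a looser yardstick than the counting error of the median itself. The median of all genes stayed between -0.01 and 0.02. Class sizes thus depend on the thresholds, and the order of first changing and continuing among the higher genes turned with 1 count or more (continuing 85), under an earlier change of 2-fold and under 60 against 0 min alone (continuing 53). The cause was not tested. No paired analysis was possible because each time has 1 library. Leaving out a replicate was not possible for the same reason.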

Other observations

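Some abundant genes of the higher and lower classes lie outside the pathways above and were picked after their values were seen. Keratins and junction genes of epithelium were among the continuing genes. KRT80 had 1527 counts at 240 min and 615 at 120 min, a ratio of 1.07 (0.94 to 1.21). KRT17 had 509 at 240 min and 161 at 120 min, a ratio of 1.41 (1.17 to 1.69), and KRT7 had 191 at 240 min and 70 at 120 min, a ratio of 1.19 (0.81 to 1.63). OCLN, which encodes the tight-junction protein occludin, had 1015 at 240 min and 424 at 120 min (1.02, 0.86 to 1.19), and CLDN1, a claudin, had 51 at 240 min and 11 at 120 min (1.81, 1.02 to 3.07). The defining epithelial markers were near 0: EPCAM had 1 count at 240 min and 2 at 120 min, and CDH1 had 0 in both libraries. CYP1A1, a target of the aryl hydrocarbon receptor, had 8.66, 20.5, 36.1 and 93.6 CPM at 0, 60, 120 and 240 min.

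PTX3, a secreted pattern-recognition protein, and OLR1, a scavenger receptor, were first changing genes. PTX3 had 436 counts at 240 min and 166 at 120 min (1.15, 0.90 to 1.42), and OLR1 had 370 at 240 min and 146 at 120 min (1.10, 0.83 to 1.39). Among lower first changing genes, TLR4, the receptor for lipopolysaccharide, had 130 counts at 240 min and 229 at 120 min (-1.04, -1.37 to -0.74). Among lower genes that turned back, the Notch target HES1 had 63.1, 219, 225 and 100 CPM at 0, 60, 120 and 240 min, and SNAI1, a repressor of epithelial genes, had 63.9, 161, 153 and 66.8 CPM. At 240 min SNAI1 was thus close to its 0 min level, while HES1 was not.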
